A study of Rattus norvegicus with 12 samples.

Results

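The expression of 10 genes of hepatic stellate cells and of the liver's matrix was followed in the livers of rats fed 3 diets: Col1a1, Col1a2, Col3a1, Col4a1, Loxl2, Pdgfrb, Des, Acta2, Timp1 and Lrat. Each gene was taken as the probe set annotated with that symbol and no other. All 10 genes had exactly 1 such probe set, so 10 of the 15310 probe sets with a single symbol (14506 genes) were described. The arrays were Rat Gene 1.0 ST arrays from Affymetrix, hybridised with whole liver RNA, and the values are log2 signals, on which 1 unit is a doubling.

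The 12 samples, 4 per diet, came from Sprague-Dawley rats of the diet-induced obese kind, all male, which from 12 to 20 weeks of age ate a diet rich in fat and sucrose without restriction for 8 weeks. The control diet took its protein from casein, which gave 10% of the energy. Skim milk powder supplied all protein of the dairy diet, and the leucine diet had 7.1% of energy from casein and 2.9% from free leucine. Protein stood at 10% of energy and the energy density at 4.6 kcal per gram in each diet. Added leucine therefore cannot be told apart from less casein, nor dairy protein from the rest of skim milk powder. No lean or chow-fed group and no histology was analysed here. Samples were numbered 1 to 4 within each diet and are read as 1 rat each, and the p-values measure the spread between these samples.

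Stellate cells lie between hepatocytes and the sinusoids and store vitamin A as retinyl esters, which LRAT makes. When the liver is injured they lose that store, spread into contractile myofibroblasts with smooth muscle actin, and lay down fibrillar collagens, with PDGF as a main growth signal and TIMP1 as a brake on matrix breakdown. The same matrix genes are also transcribed in portal fibroblasts, vessel walls and, for Timp1, in hepatocytes and other cells under inflammation. In whole liver, fewer cells of a type and less RNA per cell cannot be told apart.

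The arrays carried liver RNA: albumin (Alb) stood at 13.8 ± 0.232, 13.7 ± 0.228 and 13.7 ± 0.117 (SD, n = 4) with casein, dairy and leucine. Column medians lay between 4.43 and 4.62, and the spread over probe sets was narrowest in dairy replicate 3 (SD 2.07) and casein replicate 4 (2.14), against up to 2.33 elsewhere. Of 16 further stellate cell markers 15 were measured, and the log2 of their summed signals ran from 9.9 to 10.2 with casein, 9.56 to 10.57 with dairy and 10.06 to 10.42 with leucine. In that list 6 markers were higher and 9 lower with dairy than with casein, where 46.9% of all probe sets were higher. At an unadjusted p under 0.05 in limma were 0 of them, beside 10.9% of all probe sets.

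No gene of the 10 passed limma's test between any pair of diets, after Benjamini-Hochberg adjustment over all 15310 probe sets at a threshold of 0.05. With dairy against casein 0.0849% of all probe sets passed, all of them higher, and with leucine against casein or against dairy 0% passed. A moderated F test over the 3 diets also called 0 of the 10 genes, where it called 0.0327% of all probe sets. At an unadjusted p under 0.05 that F test took 1 of the 10, Des (limma adjusted p = 0.643), beside 7.76% of all probe sets.

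Without adjustment, 9 of the 10 genes had a higher mean with dairy than with casein, where 46.9% of all probe sets did, and Lrat was the 1 gene lower. Their median log2 difference was 0.39, beside -0.02 over all probe sets. The 10 genes were chosen with earlier results of these data known, and some ran together across the same livers. Counts and medians of the genes, here and in the other comparisons, therefore describe these arrays and are no independent test. Loxl2, Des and Col4a1 reached an unadjusted p under 0.05 in limma, all higher, where 10.9% of all probe sets did so (4.59% higher and 6.32% lower). The exact two-sided permutation test of these differences gave p = 0.114, 0.143 and 0.143 in that order. With n = 4 per diet that test cannot go under 0.0286. The limma count of 3 was 0 without casein replicate 1 or dairy replicate 2. It was 1 without casein replicate 2 or dairy replicate 1 and when arrays were centred on their medians, and 2 when the array left out was number 3 or 4 of casein, 3 of dairy or 4 of leucine. It was 4 with quantile normalization and 7 with array weights, where Lrat was among them as lower, Col3a1 also turned lower (-0.09) and 8 genes were higher. Without both arrays of narrow spread, 9 genes were still higher and 2 had an unadjusted p under 0.05.

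With leucine against casein 5 of the genes were higher and 5 lower, with a median difference of 0.02, where 43.8% of all probe sets were higher. Des alone had an unadjusted p under 0.05, beside 3.31% of all probe sets (1.39% higher and 1.92% lower), and no longer did so when number 1 or 2 of casein or number 3 or 4 of leucine was left out. The exact permutation test of this Des difference gave p = 0.143. With leucine against dairy 8 were lower and 2 higher, with a median of -0.41 beside -0.01 over all probe sets, of which 48.0% were higher. Col1a1 and Pdgfrb, both lower, had an unadjusted p under 0.05 there, beside 6.95% of all probe sets (3.65% higher and 3.30% lower). The exact permutation test gave them p = 0.143 and 0.0571. The limma count of 2 was 5 without dairy replicate 4, and 0 without dairy replicate 1, without number 1, 2 or 3 of leucine, and with median centring or trend and robust variance. Dairy samples enter both this comparison and that with casein, so the lists of differences share arrays. No gene of the 10 had groups that did not overlap in any of the 3 comparisons, where 4.27%, 2.44% and 5.09% of all probe sets did.

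**Figure D1:**
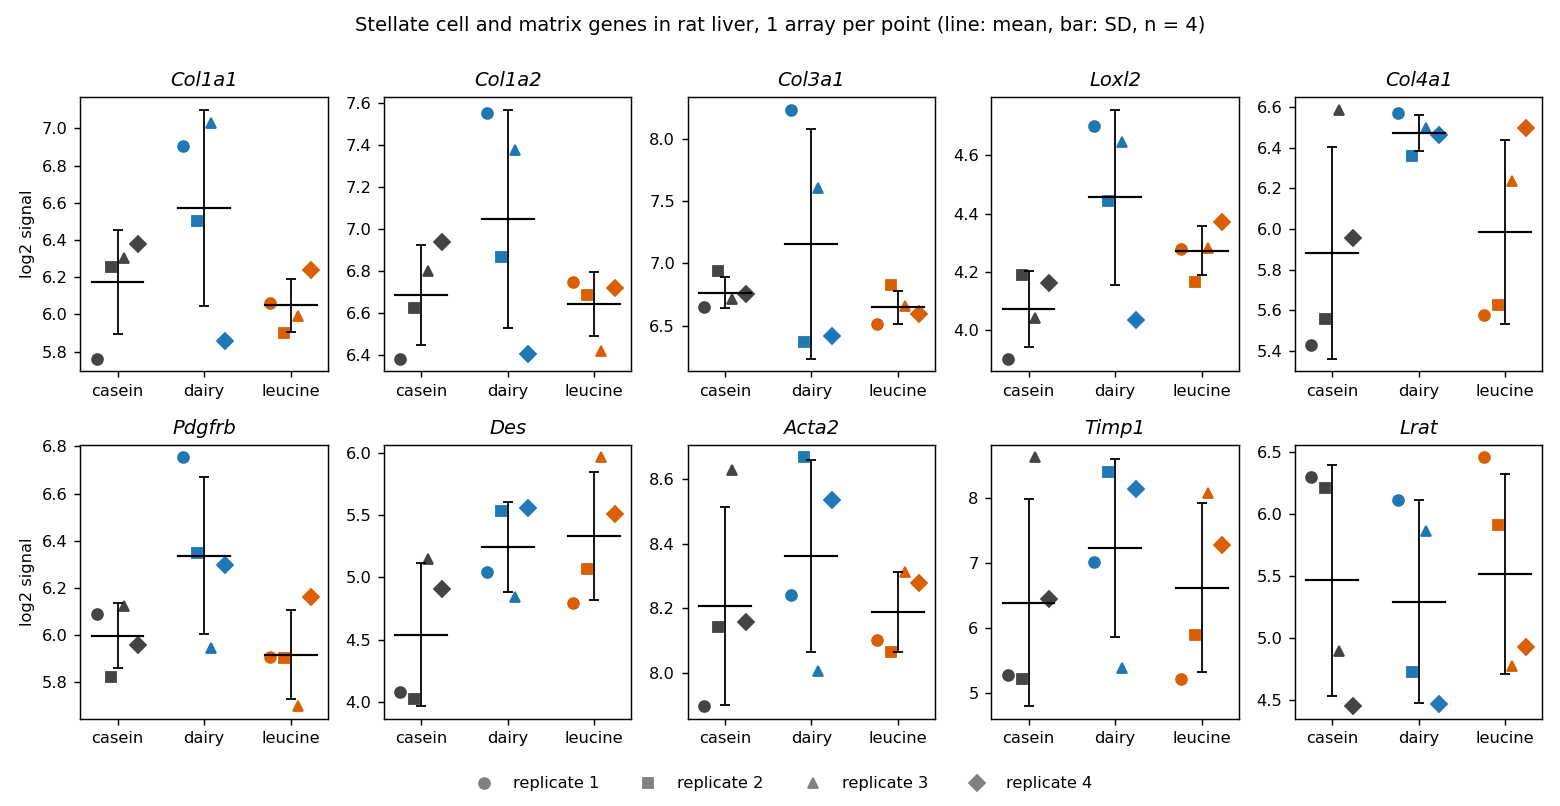
Log2 signal (y axis, own scale per panel) of the 10 genes in each of the 12 livers, by diet on the x axis. Marker shape gives the replicate number, the line the mean and the bar the SD (n = 4). Dairy replicates 1 and 3 are the top points for the fibrillar collagens, and Timp1 spans at least 2.86 log2 units within each diet.

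**Figure D2:**
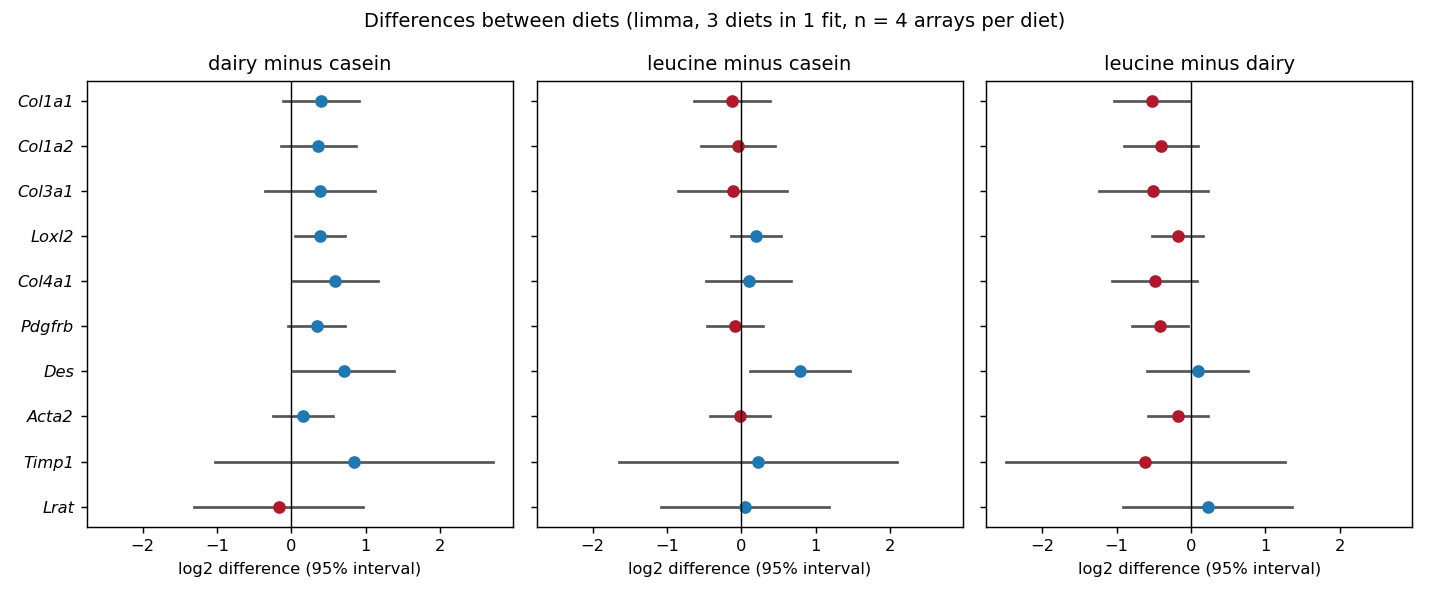
Log2 difference (x axis) of each gene (y axis) with its 95% interval from limma, for dairy minus casein, leucine minus casein and leucine minus dairy. Blue points are above 0 and red points below. The widest intervals belong to Timp1 and Lrat, and 9 of 10 points in the first panel lie above 0.

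Col1a1 and Col1a2 encode the chains of type I collagen, the main fibre of scar tissue. Col1a1 read 5.76, 6.26, 6.30 and 6.38 in casein replicates 1 to 4, 6.90, 6.50, 7.03 and 5.86 in the dairy replicates and 6.06, 5.90, 5.99 and 6.24 in the leucine replicates. The dairy livers numbered 1, 2 and 3 were above every casein and leucine liver, while dairy replicate 4 lay among the lowest. The mean was 6.57 ± 0.528 with dairy, 6.18 ± 0.280 with casein and 6.05 ± 0.145 with leucine (SD, n = 4). Dairy differed from casein by 0.40 ± 0.237 (SE, limma adjusted p = 0.546) and leucine from dairy by -0.53 ± 0.237 (adjusted p = 0.708). Leucine and casein, neighbours in that order, differed by -0.13 with an interval of -0.64 to 0.39. Without dairy replicate 4 the difference from casein was 0.64 (adjusted p = 0.276), and without dairy replicate 3 it was 0.25.

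Col1a2 stood at 6.38, 6.62, 6.80 and 6.94 with casein. With dairy it read 7.55, 6.86, 7.37 and 6.40, and with leucine 6.75, 6.68, 6.42 and 6.72. As for Col1a1, dairy replicates 1 and 3 were the highest and dairy replicate 4 close to the bottom. The difference from casein was 0.36 ± 0.230 with dairy and -0.04 ± 0.230 with leucine (SE; limma adjusted p = 0.569 and 0.999).

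Col3a1, the chain of type III collagen, which shares fibres with type I, was even in 2 diets and scattered in the third. Its values were 6.65, 6.94, 6.72 and 6.75 with casein, 6.52, 6.83, 6.66 and 6.59 with leucine, and 8.23, 6.37, 7.60 and 6.42 with dairy. The dairy group held both the highest pair and the lowest pair of the 12 livers. Its SD was 0.917 with dairy, against 0.125 with casein and 0.131 with leucine. The mean difference between dairy and casein was 0.39 ± 0.340 (SE, limma adjusted p = 0.703), and it was 0.03 without dairy replicate 1.

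Loxl2, a lysyl oxidase-like enzyme that crosslinks collagen, had the smallest p of the 10 with dairy against casein (limma adjusted p = 0.416). Casein livers read 3.90, 4.19, 4.04 and 4.16, dairy livers 4.70, 4.44, 4.65 and 4.04 and leucine livers 4.28, 4.16, 4.28 and 4.37. Dairy replicates 1, 2 and 3 were above all casein livers, and dairy replicate 4 was among them. The difference was 0.38 ± 0.156 (SE), a 1.3-fold higher signal with an interval of 1.03 to 1.65. Leucine lay between, at 0.20 ± 0.156 above casein. Log2 signals of Loxl2 and Des were below that of the median probe set.

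Col4a1, a chain of the type IV collagen of basement membranes, was even with dairy and scattered with the other diets. Dairy livers read 6.57, 6.36, 6.50 and 6.46. Casein livers read 5.43, 5.56, 6.59 and 5.96, and leucine livers 5.58, 5.63, 6.24 and 6.50. The SD was 0.0876 with dairy and 0.521 and 0.454 with casein and leucine. Casein replicate 3 was the highest of all 12 livers, and without it the dairy difference of 0.59 ± 0.263 (SE, limma adjusted p = 0.445) became 0.83 (adjusted p = 0.309). The mean with leucine was 0.10 above casein, with an interval of -0.47 to 0.67.

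Pdgfrb, the receptor through which PDGF drives stellate cells to divide, read 6.09, 5.82, 6.12 and 5.96 with casein, 6.75, 6.35, 5.94 and 6.30 with dairy and 5.90, 5.90, 5.70 and 6.16 with leucine. Dairy replicates 1, 2 and 4 were above every other liver, and dairy replicate 3 lay among the casein livers. Dairy differed from casein by 0.34 ± 0.175 and leucine from dairy by -0.42 ± 0.175 (SE; limma adjusted p = 0.501 and 0.683). The exact two-sided permutation test of these differences gave p = 0.114 and 0.0571 with n = 4 per diet, where it cannot go under 0.0286.

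RefSeq promoters on the rat build GRCr8 were found for 6 of the 10 genes. The stretches of 250 bases before the start of Timp1, Acta2, Des and Lrat are printed 5′ to 3′ on the gene's strand. Levels of Acta2 and of Des each ran with those of Timp1 across the livers, and those of Lrat fell into separate clusters. Capitals mark matches, on either strand, to the TATA box TATAAA, the GC box GGGCGG, the CCAAT box, the AP-1 motif TGANTCA, the STAT motif TTCNNNGAA or the CArG box, which serum response factor binds in muscle genes.
Timp1, chrX:3771123-3771372, minus strand: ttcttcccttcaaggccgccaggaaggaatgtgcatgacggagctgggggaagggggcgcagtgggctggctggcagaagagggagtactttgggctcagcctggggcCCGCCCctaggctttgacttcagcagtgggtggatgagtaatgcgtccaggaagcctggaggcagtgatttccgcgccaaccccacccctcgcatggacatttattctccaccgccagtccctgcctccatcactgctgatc
Acta2, chr1:241172504-241172753, minus strand: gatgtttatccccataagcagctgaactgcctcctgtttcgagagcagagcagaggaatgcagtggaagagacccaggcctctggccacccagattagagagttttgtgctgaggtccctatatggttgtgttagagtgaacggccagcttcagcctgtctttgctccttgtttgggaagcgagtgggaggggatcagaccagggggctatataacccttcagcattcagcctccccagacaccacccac
Des, chr9:84299376-84299625, plus strand: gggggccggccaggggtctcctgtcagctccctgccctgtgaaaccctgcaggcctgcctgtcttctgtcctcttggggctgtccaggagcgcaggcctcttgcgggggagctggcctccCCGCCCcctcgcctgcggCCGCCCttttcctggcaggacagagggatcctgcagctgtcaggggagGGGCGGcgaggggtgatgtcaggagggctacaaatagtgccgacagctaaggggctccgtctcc
Lrat, chr2:170571213-170571462, minus strand: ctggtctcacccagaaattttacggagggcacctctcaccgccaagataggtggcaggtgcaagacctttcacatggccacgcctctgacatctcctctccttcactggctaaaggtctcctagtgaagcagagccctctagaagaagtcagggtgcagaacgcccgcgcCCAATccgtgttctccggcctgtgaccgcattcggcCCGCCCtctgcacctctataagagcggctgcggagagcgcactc

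The GC box GGGCGG occurred 3 times before Des, once before Timp1 and once before Lrat, and 30.5% of 33469 promoter stretches of this length held it. CCAAT occurred once before Lrat (34% of all), and none of the motifs in capitals occurred before Acta2. The TATA box, AP-1 and STAT motifs, held by 12.9%, 6.34% and 7.67% of all stretches, had no exact match in these 4 windows. The CArG box was searched only in its strict form, CC followed by 6 bases that are each A or T and then GG, which 1.5% of all stretches held and these 4 did not. Near matches were not searched, and Acta2 is known for CArG elements close to its start, so nothing is read from this. The E-box CANNTG, left in lower case, occurred once before Acta2, once before Des and 2 times before Lrat, where 65.5% of all stretches held it. These are matches of letters in a window and say nothing of binding.

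Des encodes desmin, the intermediate filament by which rat stellate cells are commonly recognised, and it is also made in smooth muscle. Casein livers read 4.08, 4.03, 5.15 and 4.91, dairy livers 5.04, 5.53, 4.84 and 5.56 and leucine livers 4.79, 5.07, 5.96 and 5.51. Casein replicates 1 and 2 were the lowest of the 12, and the other casein livers overlapped with both test diets. The mean was 0.70 ± 0.312 higher with dairy and 0.79 ± 0.312 higher with leucine (SE; limma adjusted p = 0.444 and 0.999). The signal ratios were 1.63 (interval 1.02 to 2.6) and 1.73 (1.08 to 2.77). Des was the 1 gene called under an alternative setting: with array quality weights the dairy difference was 1.19 (adjusted p = 0.0247), in a fit that called 1182 probe sets in place of 13. Leucine and dairy differed by 0.09, with an interval of -0.59 to 0.77.

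Acta2, the smooth muscle actin that marks contractile myofibroblasts and vessel walls, read 7.90, 8.14, 8.63 and 8.16 with casein, 8.24, 8.67, 8.01 and 8.54 with dairy and 8.10, 8.06, 8.31 and 8.28 with leucine. The 3 diets overlapped widely. Dairy differed from casein by 0.16 ± 0.185 and leucine from casein by -0.02 ± 0.185 (SE; limma adjusted p = 0.788 and 0.999), and the latter interval ran from -0.42 to 0.38. Actin genes share much of their coding sequence, so signal from other actins in this probe set was not tested.

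Timp1, the secreted inhibitor of matrix metalloproteinases, varied more than any other of the 10 genes, and 99.3% of all probe sets varied no more over the 12 arrays. Casein livers read 5.29, 5.22, 8.63 and 6.45, dairy livers 7.02, 8.41, 5.39 and 8.14, and leucine livers 5.22, 5.89, 8.08 and 7.29. Low and high livers occurred within each diet, and the ranges within diets were 3.42, 3.02 and 2.86 log2 units. The largest mean difference of the 10 genes, 0.84 with dairy against casein, therefore had an SE of 0.864 and an interval of -1.03 to 2.72 (limma adjusted p = 0.754). It was 1.59 without casein replicate 3 and 0.45 without casein replicate 2.

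Lrat, the enzyme that esterifies retinol for storage, was the 1 gene with a lower mean with dairy than with casein, by -0.17 ± 0.523 (SE, limma adjusted p = 0.925). It read 6.30, 6.21, 4.89 and 4.45 with casein, 6.11, 4.73, 5.86 and 4.47 with dairy, and 6.46, 5.91, 4.77 and 4.92 with leucine. The 12 values lay in separate clusters, 6 between 4.45 and 4.92 and 6 between 5.86 and 6.46, with 2 livers of each diet in each. In every diet the liver numbered 1 was in the high cluster and that numbered 4 in the low one. Whether the numbers stand for something shared was not tested for Lrat. The gap of 0.94 between the clusters was wider than the difference between any pair of diet means, which reached 0.22. The sign of the dairy difference turned with single arrays left out, reaching -0.51 when number 4 of casein was left out and 0.11 when number 1 was.

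**Figure D3:**
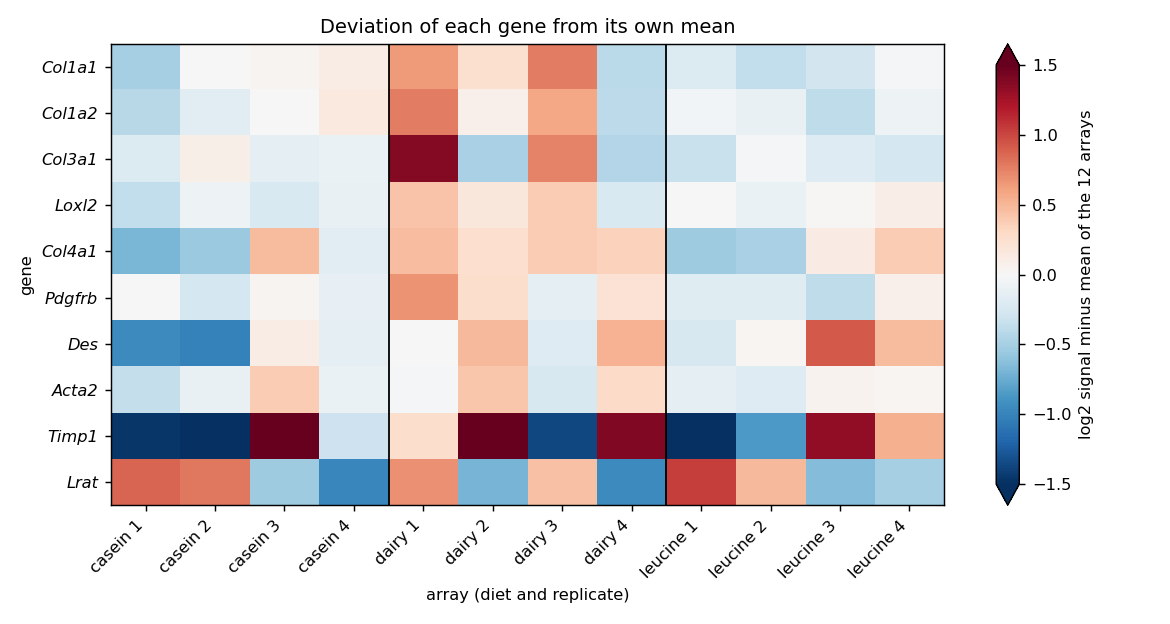
Deviation of each gene (y axis) from its own mean over the 12 arrays, in log2 units, by array (x axis). Colours saturate at 1.5 units, which Timp1 exceeds. Type I and III collagen and Loxl2 are highest in dairy replicates 1 and 3, whereas Timp1, Acta2 and Des share high and low livers across the diets and Lrat is mostly of opposite sign to Timp1.

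How the genes varied together from liver to liver was described with correlations over the 12 arrays, 45 pairs in all, with permutation p-values adjusted over those pairs. Pairs with Lrat get no r over all 12 livers, because its values form clusters. Of the 10 pairs that passed for Pearson's r, 2 were Lrat with Timp1 and with Des, both of negative sign. For these Lrat pairs Spearman's rho did not pass (permutation p = 0.00816 and 0.0121, adjusted p = 0.0734 and 0.0876). Of the other 36 pairs 27 had an r above 0, with a median of 0.41, and 8 passed at an adjusted p under 0.05 for Pearson's r. For 3 of these Spearman's rho passed as well. They were Col1a1 with Col1a2, Timp1 with Acta2, and Timp1 with Des.

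Col1a1 and Col1a2, whose products join in 1 molecule, had r = 0.935 (permutation p = 3e-05, adjusted p = 6.75e-04) and rho = 0.923 (permutation p = 5e-05, adjusted p = 0.00225). Without dairy replicates 1 and 3, which lay farthest from the Col1a1 median, r was 0.832. Among 15309 other probe sets Col1a2 was the one most like Col1a1, and Col1a1 the one most like Col1a2. Loxl2 followed Col1a1 with r = 0.85 (permutation p = 6.5e-04, adjusted p = 0.00975) and rho = 0.699 (permutation p = 0.0136, adjusted p = 0.0876), and with r = 0.594 without that pair of livers. Col3a1 had r = 0.739 with Col1a1 (permutation p = 0.00959, adjusted p = 0.0479), rho = 0.448 (permutation p = 0.147, adjusted p = 0.347), and r = -0.0171 without dairy replicates 1 and 3, so this relation rests on them. The same held for Col1a2 with Col3a1, which passed for Pearson's r (permutation p = 0.00427, adjusted p = 0.0282) but not for rho = 0.42 (permutation p = 0.177, adjusted p = 0.36), with r = 0.0519 without that pair of livers. Col1a2 with Loxl2 stood at r = 0.826 (permutation p = 0.00121, adjusted p = 0.0109), rho = 0.65 (permutation p = 0.0262, adjusted p = 0.118) and r = 0.468 without that pair.

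The levels of Timp1 and Acta2, whose promoters are printed above with that of Des, had r = 0.915 (permutation p = 2e-05, adjusted p = 6.75e-04) and rho = 0.881 (permutation p = 3.6e-04, adjusted p = 0.00645). Without casein replicate 3 and dairy replicate 2 r was 0.874. Des and Timp1 had r = 0.802 (permutation p = 0.00114, adjusted p = 0.0109) and rho = 0.874 (permutation p = 4.3e-04, adjusted p = 0.00645). Without casein replicates 1 and 2 r was 0.75, and after each diet's mean was taken off it was 0.936. Des with Acta2 did not pass for Pearson's r = 0.643 (permutation p = 0.0239, adjusted p = 0.0768), with r = 0.56 without the same livers. Its rho was 0.776 (permutation p = 0.00395, adjusted p = 0.0444). Col4a1 with Timp1 had r = 0.732 (permutation p = 0.0107, adjusted p = 0.0481), rho = 0.685 (permutation p = 0.0163, adjusted p = 0.0915) and r = 0.61 without casein replicates 1 and 2. Many other probe sets ran with Timp1 as well. Of 15309 others, 0.425% had an r with Timp1 at least as high as Acta2, 3.67% as Des and 6.06% as Col4a1. Seen from Acta2, Des and Col4a1, 0.144%, 0.823% and 1.02% had an r at least as high as Timp1. Col1a1 with Timp1 had r = -6.07e-04 (permutation p = 0.998, adjusted p = 0.998) and rho = 0.119 (permutation p = 0.716, adjusted p = 0.819). For Lrat and Timp1, r within the 6 livers of high Lrat was -0.302 (exact permutation p = 0.618) and within the 6 of low Lrat 0.408 (exact permutation p = 0.406), and the split narrows the range of Lrat on each side.

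**Figure D4:**
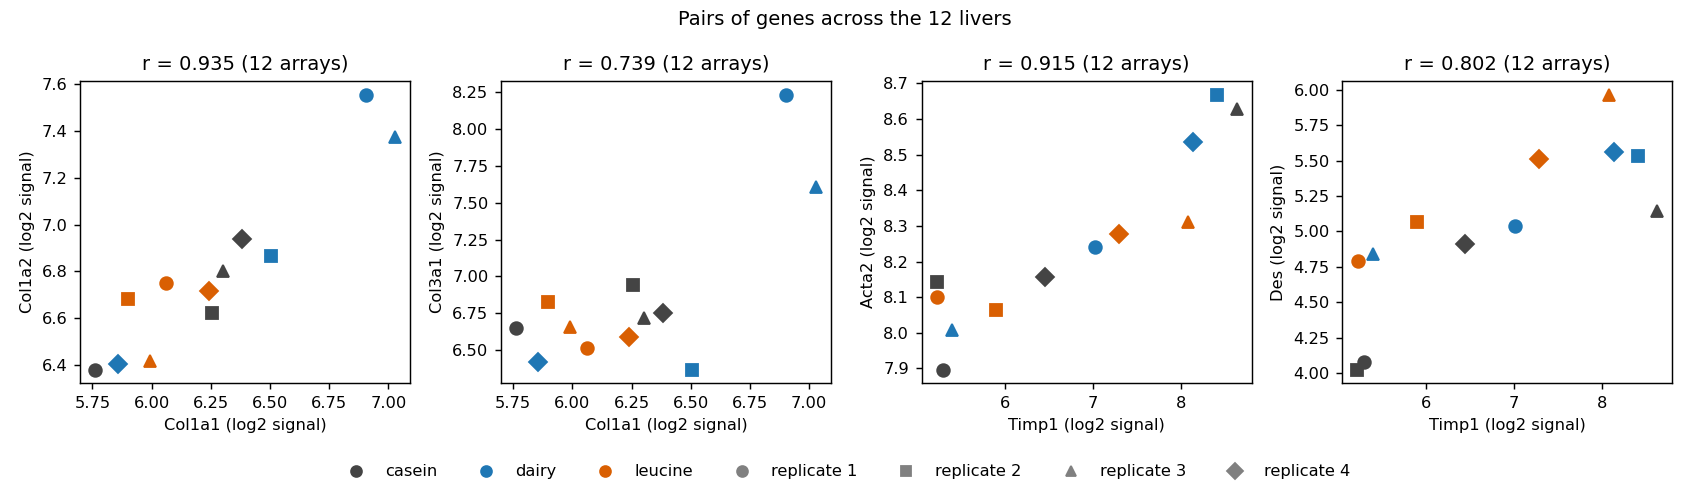
Log2 signals of pairs of genes in the 12 livers, coloured by diet, with marker shape for the replicate. Col1a1 and Col1a2 lie along 1 line (r = 0.935), Col1a1 and Col3a1 are held together by dairy replicates 1 and 3 (r = 0.739), and Timp1 runs with Acta2 (r = 0.915) and Des (r = 0.802) with all diets mixed.

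Measures that moved with these genes were looked at in the same way, over 110 pairs of a gene with the mean level of 1 of 10 gene lists or with the SD of the array. Of these lists 9 held cell type markers and the other held acute phase genes. Of the 110 pairs 2 passed for Pearson's r, Timp1 and Lrat, each with the acute phase list. That list was written after the data were seen, so the p-values with it describe these arrays and are no independent test. The pair with Lrat was negative and gets no r over the 12 livers, for the reason given. Its rho did not pass (permutation p = 0.00398, adjusted p = 0.109). Timp1 followed 18 acute phase genes, which the liver induces in inflammation, with r = 0.866 (permutation p = 1.6e-04, adjusted p = 0.0176) and rho = 0.916 (permutation p = 8e-05, adjusted p = 0.0044). Without casein replicate 2 and leucine replicate 1 r was 0.893. Des with the same list had r = 0.796 (permutation p = 0.00208, adjusted p = 0.0763) and rho = 0.944 (permutation p = 1e-05, the smallest these permutations can give, adjusted p = 0.0011), and r = 0.808 without the same livers. Acta2 had r = 0.672 (permutation p = 0.017, adjusted p = 0.237) and rho = 0.79 (permutation p = 0.00314, adjusted p = 0.109), and r = 0.856 without them. The mean level of that list ran from 10.39 to 12.15 with casein, 11.21 to 12.37 with dairy and 10.45 to 12.21 with leucine. Col1a1 had r = -0.112 with it (permutation p = 0.733, adjusted p = 0.867) and rho = -0.182 (permutation p = 0.573, adjusted p = 0.853). No gene of the 10 passed with the SD of the array, where Col1a1 came nearest at r = -0.581 (permutation p = 0.041, adjusted p = 0.375) and rho = -0.413 (permutation p = 0.187, adjusted p = 0.525), and r = -0.157 without dairy replicate 3 and casein replicate 4. No pair with a cell type list passed. Nearest came Des with erythroid markers at r = 0.724 (permutation p = 0.00453, adjusted p = 0.125) and rho = 0.629 (permutation p = 0.0313, adjusted p = 0.287), and r = 0.62 without leucine replicates 3 and 4. Col4a1 with hepatocyte markers had r = -0.75 (permutation p = 0.00694, adjusted p = 0.153) and rho = -0.692 (permutation p = 0.016, adjusted p = 0.229), and r = -0.77 without dairy replicates 2 and 3. With the stellate cell markers Col3a1 had the highest r, 0.694 (permutation p = 0.0102, adjusted p = 0.187), and rho = 0.573 (permutation p = 0.0553, adjusted p = 0.38). Without dairy replicates 1 and 2 r was 0.408. Acta2 had the lowest r with them, -0.597 (permutation p = 0.0402, adjusted p = 0.375), and rho = -0.497 (permutation p = 0.103, adjusted p = 0.479), and r = -0.554 without those livers.

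By likeness over the 12 arrays, among probe sets brighter than the median one, the genes closest to Col1a1 after Col1a2 were Flywch1 (r = 0.903), the extracellular superoxide dismutase Sod3 (0.88), Shank3 (0.875) and Coq4 (0.873). Those closest to Des were Marcksl1 (0.919), the transcription factor Cebpd (0.917), Sowahc (0.913), Pkdcc (0.912) and Serpinh1 (0.911), the collagen chaperone. Those closest to Timp1 were Creb3l1 (0.965), Trim47 (0.964), Rhoc (0.964), Marcks (0.953) and Gnai2 (0.952). These were picked as the highest of many and carry no test.

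Other genes of the same pathways were read from 7 lists by role, of which 114 of 136 genes had a probe set with that symbol alone. None of the 114 passed limma's test in any comparison. Between dairy and casein 65 were higher and 49 lower, with a median difference of 0.06, and 8 higher and 1 lower had an unadjusted p under 0.05. Over all probe sets 46.9% were higher, and 10.9% had such a p (4.59% higher and 6.32% lower). Between leucine and casein 49 were higher and 65 lower. Of these 0 higher and 1 lower had an unadjusted p under 0.05, beside 1.39% and 1.92% of all probe sets. Between leucine and dairy 41 were higher and 73 lower. Of these 1 higher and 5 lower had such a p, beside 3.65% and 3.30% of all probe sets. The counts of the single lists below stand beside the same shares.

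Among the other collagen chains 7 of 9 measured genes were higher with dairy than with casein, with a median of 0.10, and 0 had an unadjusted p under 0.05. Over all probe sets 46.9% were higher and 10.9% had such a p. Col5a3 differed by 0.38 ± 0.208 and Col16a1 by 0.22 ± 0.148 (SE; limma adjusted p = 0.523 and 0.601), and Col16a1 by -0.37 ± 0.148 with leucine against dairy (adjusted p = 0.676). Basement membrane and matrix glycoproteins were higher for 12 and lower for 7 of 19 genes, with a median of 0.09, and 0 had an unadjusted p under 0.05. The laminin chain Lama5 stood at 0.23 ± 0.108 and Fbln1 at 0.45 ± 0.235 (SE; adjusted p = 0.467 and 0.503).

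Genes that process and crosslink collagen had 13 of 20 members higher with dairy than with casein and a median of 0.21, where 46.9% of all probe sets were higher. Of them 3, all higher, had an unadjusted p under 0.05, beside 4.59% of all probe sets higher at such a p. P4ha3 and P4hb, subunits of prolyl 4-hydroxylases that let the triple helix form, differed by 0.46 ± 0.154 and 0.38 ± 0.153 (SE; limma adjusted p = 0.327 and 0.409). The prolyl 3-hydroxylase P3h1 differed by -0.37 ± 0.169 with leucine against casein and -0.39 ± 0.169 against dairy (SE; adjusted p = 0.999 and 0.708). Loxl4, a relative of Loxl2, differed by -0.87 ± 0.286 with leucine against dairy (adjusted p = 0.657).

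Matrix proteases and their inhibitors were higher with dairy for 10 of 15 genes, with a median of 0.19, where 46.9% of all probe sets were higher. Of these 15 genes 3, all higher, had an unadjusted p under 0.05, beside 4.59% of all probe sets higher at such a p. The gelatinase Mmp2 differed by 0.36 ± 0.149 and Mmp11 by 0.44 ± 0.192 (SE; limma adjusted p = 0.422 and 0.44). In PDGF and TGF-beta signalling 8 of 20 genes were higher and 12 lower, with a median of -0.07, and 1, higher, had an unadjusted p under 0.05. Smad6, an inhibitor of BMP signalling, differed by 0.65 ± 0.236 and Smad2, which carries the TGF-beta signal, by -0.41 ± 0.208 (SE; adjusted p = 0.365 and 0.494).

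Contractile and filament genes were higher for 8 and lower for 7 of 15, with a median of 0.01 between dairy and casein. Of them 1, higher, had an unadjusted p under 0.05. Calponin, Cnn1, differed by 0.37 ± 0.159 with dairy against casein and by -0.51 ± 0.159 with leucine against dairy (SE; limma adjusted p = 0.437 and 0.657), and smooth muscle myosin, Myh11, by -0.46 ± 0.224 with dairy against casein (adjusted p = 0.47). Retinoid genes, the setting of Lrat, were higher for 7 and lower for 9 of 16, with a median of -0.01, and 1, lower, had an unadjusted p under 0.05. Bco1, which cleaves beta-carotene to retinal, differed by -0.86 ± 0.372 with dairy and the plasma retinol carrier Rbp4 by -0.26 ± 0.147 (SE; adjusted p = 0.437 and 0.533).

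Markers of other cell types were read beside these differences, and their part in them was not tested. Erythroid markers, which come with blood, had 6 measured genes. Their log2 summed signals were 9.75 to 10.66 with casein, 11.17 to 11.52 with dairy and 10.41 to 12.7 with leucine. These sums, in which bright genes weigh most, did not overlap between dairy and casein. The mean log2 signal of the 6 genes did overlap, at 5.463 to 5.833 with casein and 5.832 to 6.29 with dairy. Their median log2 difference between dairy and casein was 0.135. In dairy livers 5 of the 6 were higher than with casein and in leucine livers 6 of 6. Hepatocyte markers summed to 16.29 to 16.62, 16.05 to 16.46 and 16.23 to 16.49 in the same order of diets. With dairy 11 of 13 were lower, 3 of these at an unadjusted p under 0.05. Over all probe sets 46.9% were higher with dairy than with casein, and 6.32% were lower at such a p. Portal fibroblast markers were higher with dairy for 7 of 10 genes, smooth muscle markers for 2 of 8, mesothelial markers for 1 of 4, endothelial markers for 3 of 8, Kupffer cell and macrophage markers for 4 of 11 and cholangiocyte markers for 1 of 6. No value on these arrays was 0, the lowest being 1.06. For the 6 lists from portal fibroblasts to cholangiocytes the summed levels overlapped between dairy and casein, except for mesothelial markers, which ran from 7.09 to 7.77 with casein and 5.85 to 6.91 with dairy. The mean log2 signal of the 4 measured mesothelial genes did overlap, at 4.62 to 4.87 with casein and 3.83 to 4.73 with dairy. Among them Gpm6a differed by -2.82 ± 0.834 and Wt1 by 0.53 ± 0.199 with dairy against casein (SE, limma adjusted p = 0.295 and 0.373).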

How the data were processed

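Liver RNA was hybridised to 1 array per sample. The authors deposited log2 signals, which the submitters' processing notes credit to Affymetrix Expression Console. For that program no version, summarisation, normalization between arrays or build is given in the sources used here. Spreads of the values differed between arrays. Arrays carry no read depth, so their number limits the precision.

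Differences were tested with limma (version 3.58.1, R 4.3.3), fitting 3 diet means over 12 arrays with eBayes defaults (residual df 9, prior df 3.45). All tests are two-sided, adjusted by Benjamini-Hochberg over 15310 probe sets with 1 symbol. A further 323 probe sets with several symbols and 13581 not listed were left out. The fit was tested on simulated data. Correlations used 100000 permutations of the pairing, so their p-values cannot go under 1e-05. The permutations treated the 12 arrays as exchangeable, whatever their diet or replicate number. Where a listed gene had several probe sets, the brightest stood for it. The named genes were the 10 members, the genes past the threshold in each pathway list or else the 2 with the smallest unadjusted p in a comparison (some are not repeated here), and the 5 most alike to Col1a1, Des and Timp1. Members and lists were chosen with earlier results of these data known. Alternatives were quantile normalization, median centring, a filter on dim probe sets, trend and robust variance, array weights, 2 diets alone, a replicate block, the exact permutation test and leaving arrays out.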

Additional observations from a re-analysis of the deposited data

How the results depend on the processing

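The count of the 10 genes called stayed at 0 in each comparison when any 1 of the 12 arrays was left out (range 0 to 0), and under every other alternative except array weights. With array weights it was 1 (Des) with dairy against casein and 1 in the F test. Over all probe sets the 13 calls with dairy became 22 with quantile normalization, 8 with trend and robust variance, 1182 with array weights, 6 with only the diets compared, 164 without casein replicate 4 and dairy replicate 3 together, and 3 to 237 with 1 array left out (3 without casein replicate 1 or dairy replicate 1, 237 without casein replicate 4). With leucine against casein that last range was 0 to 2 (2 without leucine replicate 2). The cause of these changes was not tested. The replicate numbers were not taken to pair the samples, since 7 and not all of 12 same-numbered pairs had deviations correlated above 0.1, although the median r was 0.285 for the same number and -0.152 for other numbers. Of 12 arrays 2 were most like an array of their own number. With the replicate block 1 probe set was called with leucine against dairy in place of 0, and no call among the 10 genes changed. The sign of some differences turned. With array weights these were Col3a1 with dairy against casein (-0.0891, against 0.39), Col1a2 (0.0578), Acta2 (0.0728) and Lrat (-0.477) with leucine against casein, and Des with leucine against dairy (-0.0857). Median centring turned Acta2 with leucine against casein (0.00999). Leaving out casein replicate 4 and dairy replicate 3 together turned Col1a2 (0.0394) and Lrat (-0.287) with leucine against casein and Des with leucine against dairy (-0.0434). With 1 array left out, Lrat ran from -0.509 to 0.107 with dairy against casein. With leucine against casein Col4a1 ran from -0.0683 to 0.337, Col1a2 from -0.146 to 0.0394, Timp1 from -0.262 to 0.971, Acta2 from -0.121 to 0.123 and Lrat from -0.287 to 0.329. With leucine against dairy Des ran from -0.121 to 0.269 and Lrat from -0.0923 to 0.496. The 8 correlations between genes that passed, those with Lrat left aside, kept their sign under quantile normalization, median centring and removal of the diet means, and the median r over all 45 pairs, 0.367, ran from 0.201 to 0.38. With 4 arrays per diet and a spread within diets as wide as that of Timp1 (SD 1.43), a mean difference such as its 0.84 could not be resolved.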
